A study of Mus musculus with 14 samples.

Results

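The 10 genes described here encode the chains and the loading machinery of MHC class I molecules in the mouse. They were chosen by name, as the rows of the deposited count table whose Ensembl identifiers correspond to H2-K1, H2-D1, H2-Q4, H2-Q6, H2-Q7, H2-T23, B2m, Tap1, Tap2 and Tapbp. These are 10 of the 46078 genes in the table, and all 10 were among the 26990 genes that passed a filter on low counts and were tested. The cells were 2 populations sorted out of bone marrow, taken at the age of 8 weeks from C57BL/6 mice. Immature type 1 innate lymphoid cells (iILC1) carried IL-7Ra, CD49a and NK1.1 and lacked CD3. Immature natural killer cells (iNK) carried NK1.1, CD27 and DX5 and lacked IL-7Ra, CD11b and CD3. The conditional knockout mice (cKO) carried Vav-Cre, a Cre line of the haematopoietic system, with 1 floxed and 1 knockout allele of Il15. The control mice carried the same floxed and knockout alleles without Cre, so that no group was wild type at Il15. The groups were cKO iILC1 (n = 4), control iILC1 (n = 3), cKO iNK (n = 4) and control iNK (n = 3), each library being made from 2000 cells.

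An MHC class I molecule is a heavy chain bound to the light chain beta-2-microglobulin and to a short peptide, shown on the surface of most nucleated cells. The TAP transporter carries peptides into the endoplasmic reticulum, where tapasin bridges the transporter and the empty heavy chain until a peptide is bound. Natural killer cells are known for reading class I on other cells through inhibitory receptors, Ly49 receptors for H2-K and H2-D molecules and CD94/NKG2A for Qa-1, and they carry class I themselves. Transcription of the class I genes is known to be raised by interferon and by the transactivator NLRC5.

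Total counts were 5478641 to 10308693 in cKO iILC1 libraries, 3512796 to 4933284 in control iILC1 libraries, 6254844 to 12572326 in cKO iNK libraries and 6238016 to 8013984 in control iNK libraries. Il7r, which encodes IL-7Ra, averaged 646 CPM (counts scaled to library size and TMM factors) in cKO iILC1 and 22.3 CPM in cKO iNK, and 408 CPM in control iILC1 and 8.37 CPM in control iNK. Itga1 (CD49a) was also higher in iILC1, and Itga2 (DX5) and Eomes were lower, in both genotypes. Of 11 NK and ILC1 markers, 6 did not pass the test between cell types in cKO mice and 7 in control mice, among them Cd27 and Itgam (CD11b), which are part of the iNK gate. Il15 itself had 88 to 206 counts in cKO iILC1, 47 to 67 in control iILC1, 66 to 144 in cKO iNK and 51 to 71 in control iNK, and a count over the whole gene does not resolve the floxed part, so it checks no label. Summed olfactory and vomeronasal receptor genes, which lymphocytes are not known to express, stood at 1881 to 3437 CPM in cKO iILC1, 2518 to 3539 CPM in control iILC1, 2004 to 3051 CPM in cKO iNK and 1621 to 2912 CPM in control iNK, and are used below as a measure of background reads. Nothing in the labels states whether each sample is a mouse of its own, and p-values thus cover the spread between the sequenced samples, which may be technical.

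Of the 10 genes, 9 lie on chromosome 17 within or beside the H2 complex, and B2m lies on chromosome 2. The positions of the table (mm10) are 33996017 to 34000333 on the minus strand for H2-K1, 35262730 to 35267499 for H2-D1, 35379617 to 35385290 for H2-Q4, 35424850 to 35430055 for H2-Q6, 35439155 to 35443773 for H2-Q7 and 36029773 to 36032855 on the minus strand for H2-T23. Tapbp lies at 33915899 to 33929288, Tap1 at 34187553 to 34197225 and Tap2 at 34203527 to 34216321, all on the plus strand, and B2m at 122147686 to 122153083 of chromosome 2. The counts were taken over the exons of a gene and resolve no transcript or UTR.

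Promoter windows are shown because the heavy chain genes share letters in them, and their relation to the levels of the genes was not tested. The windows of 150 bases are from RefSeq, build GRCm38.p6, 5′ to 3′ on the strand of the gene, and 9 of the 10 genes, all but Tap2, had an entry. Capitals mark matches on either strand to GGGNNTTCCC (the kappaB motif), GAANNGAAA or GAAANNGAAA (interferon response motifs that differ in spacing, so that neither holds the other) and TGACG (the core of a cyclic AMP response element).
H2-K1, chr17:34000348-34000497, minus strand, 150 bases before to 1 base before the RefSeq start site: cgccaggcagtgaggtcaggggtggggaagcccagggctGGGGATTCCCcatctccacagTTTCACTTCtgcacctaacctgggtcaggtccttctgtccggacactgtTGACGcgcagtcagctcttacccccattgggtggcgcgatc
H2-D1, chr17:35262913-35263062, plus strand, from 181 to 32 bases before the start site: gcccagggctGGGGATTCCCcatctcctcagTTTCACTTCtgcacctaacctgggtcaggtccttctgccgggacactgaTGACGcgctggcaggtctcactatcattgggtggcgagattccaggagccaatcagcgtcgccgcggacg
H2-Q4, chr17:35379434-35379583, plus strand, from 183 to 34 bases before the start site: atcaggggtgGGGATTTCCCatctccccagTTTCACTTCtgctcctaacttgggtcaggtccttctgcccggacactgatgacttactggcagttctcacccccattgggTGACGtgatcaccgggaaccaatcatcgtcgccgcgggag
H2-Q6, chr17:35424667-35424816, plus strand, from 183 to 34 bases before the start site: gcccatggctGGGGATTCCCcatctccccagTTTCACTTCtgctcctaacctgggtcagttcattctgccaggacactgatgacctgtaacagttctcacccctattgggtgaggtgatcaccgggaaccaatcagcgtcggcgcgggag
H2-Q7, chr17:35439005-35439154, plus strand, from 150 to 1 bases before the start site: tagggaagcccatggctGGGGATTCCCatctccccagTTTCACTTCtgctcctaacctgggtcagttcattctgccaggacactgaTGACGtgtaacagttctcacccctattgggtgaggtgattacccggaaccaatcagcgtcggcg
H2-T23, chr17:36032702-36032851, minus strand, from 150 to 1 bases before the start site: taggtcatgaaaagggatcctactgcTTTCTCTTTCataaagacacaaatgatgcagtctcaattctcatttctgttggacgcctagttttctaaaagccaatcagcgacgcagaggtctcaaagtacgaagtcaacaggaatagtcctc
B2m, chr2:122147537-122147686, plus strand, from 150 to 1 bases before the start site: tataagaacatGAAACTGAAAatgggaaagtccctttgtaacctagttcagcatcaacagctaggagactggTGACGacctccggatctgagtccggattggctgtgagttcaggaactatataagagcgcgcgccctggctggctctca

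The kappaB letters were found in the promoter entries of 5 of the 9 genes (H2-K1, H2-D1, H2-Q4, H2-Q6 and H2-Q7) and in 1.75% of the 32851 mouse promoter entries, which span 250 bases before to 50 after a start site. The same 5 genes held GAANNGAAA on the opposite strand, a motif in 7.52% of all entries, with the kappaB letters further from the start site in each. H2-T23 and B2m held GAAANNGAAA, found in 3.44% of entries, and no kappaB letters. TGACG stood in 6 of the 9 (H2-K1, H2-D1, H2-Q4, H2-Q7, B2m and Tap1) against 20.8% of all entries, and Tapbp held none of the 4 motifs. The heavy chain genes are near copies of each other, so these are not separate observations, and a match of letters is a description only. The windows of H2-D1 and H2-T23 lie inside these genes as counted, so their RefSeq start sites differ from the ends of the counted genes.

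The same likeness reaches the counts. The GENCODE M21 transcripts (GRCm38) are not the annotation that was counted, since their ends of H2-K1 and Tapbp differ from those of the table. In them, 35.0% of the 50-base windows of H2-Q6 also occur in another gene, most often in H2-Q7, and 36.4% of those of H2-Q4, most often in the predicted gene Gm11131. The share was 26.5% for H2-Q7, 14.5% for H2-T23, 12.8% for H2-D1 and 9.63% for H2-K1. B2m had none, Tap1 3.33%, mainly with the neighbouring Psmb9, Tap2 11.6% and Tapbp 23.2%, the last 2 mainly with overlapping predicted genes. With 100-base windows the shares were 13.0% for H2-Q6, 14.1% for H2-Q4, 12.0% for H2-Q7 and 0.957% for H2-K1. How the authors' counting placed reads that map to several places, and whether it used strand, is not given in the sources used here, so the counts of H2-Q4, H2-Q6 and H2-Q7 in particular are uncertain.

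All 10 genes were well covered, from 122 counts for H2-Q4 in the lowest library to 53250 for H2-D1 in the highest. Together they took 1.34 to 1.69% of all counts in cKO iILC1 libraries, 1.32 to 1.58% in control iILC1, 0.989 to 1.12% in cKO iNK and 1.23 to 1.37% in control iNK. The cKO iNK libraries thus lay below the libraries of each of the other groups in this raw share. In these bulk samples fewer expressing cells and less RNA per cell cannot be told apart.

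**Figure D1:**
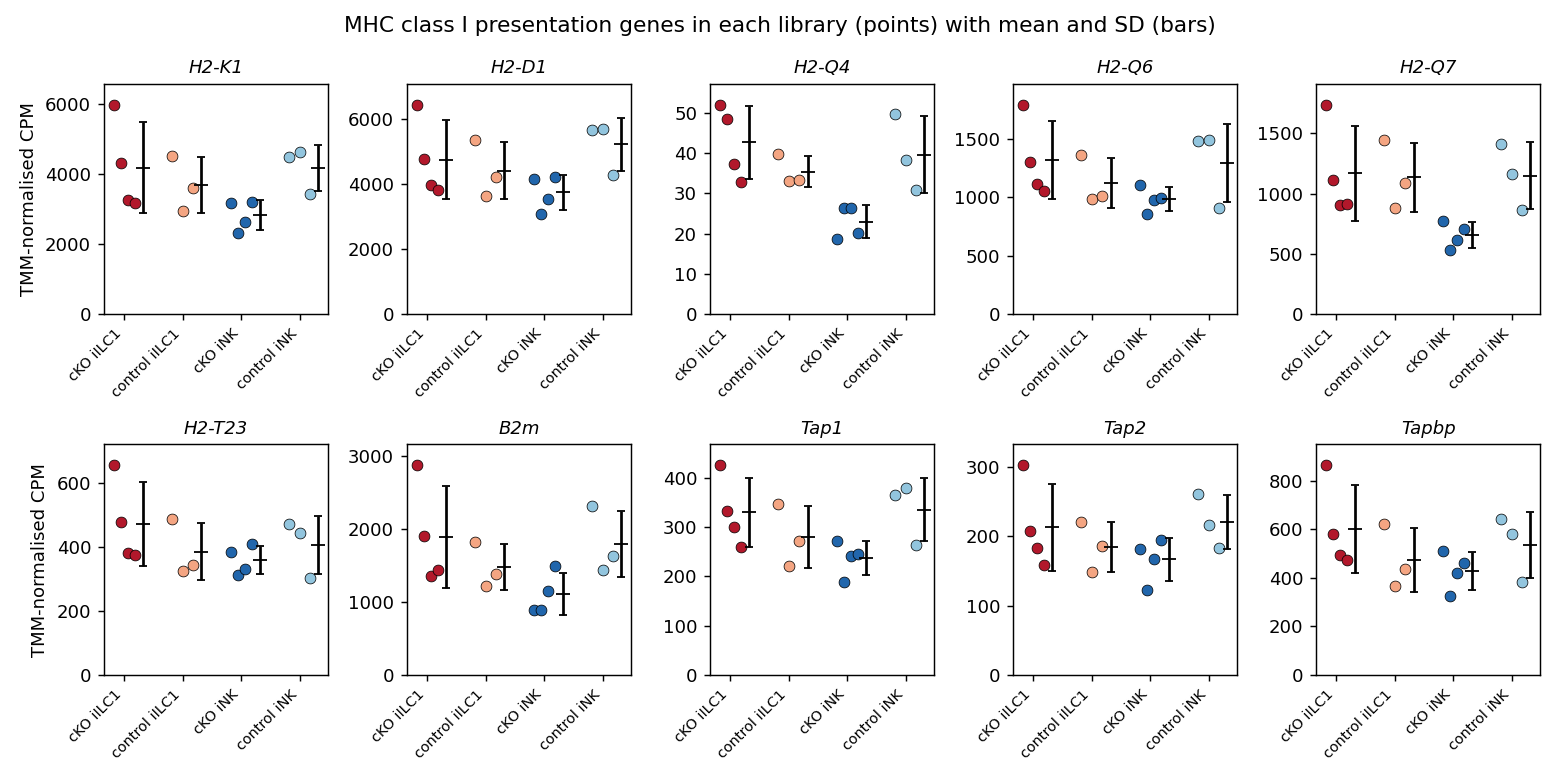
Level of each of the 10 genes in TMM-normalised CPM (vertical axis, from 0) for cKO iILC1 (n = 4), control iILC1 (n = 3), cKO iNK (n = 4) and control iNK (n = 3). Points are libraries and the bar beside them is the mean and SD. H2-Q4 and H2-Q7 are the genes whose cKO iILC1 libraries all stand above all cKO iNK libraries.

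Levels per kilobase of exon put the genes in nearly the same order in every group. B2m and the classical heavy chains were at the top. B2m averaged 2195 ± 811 CPM per kb in cKO iILC1, 1711 ± 368 in control iILC1, 1284 ± 334 in cKO iNK and 2081 ± 532 in control iNK (SD, n = 4, 3, 4 and 3). H2-D1 averaged 1843 ± 468, 1709 ± 341, 1453 ± 213 and 2025 ± 314 CPM per kb in the same groups, and H2-K1 1605 ± 502, 1413 ± 306, 1085 ± 163 and 1605 ± 253. B2m and H2-D1 differed by less than their SD in every group. H2-D1 stood first in cKO iNK and B2m in the other groups.

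The Qa-2 heavy chain genes followed, at 471 to 631 CPM per kb for the group means of H2-Q6 and 154 to 273 for H2-Q7. Tapbp (130 to 183 CPM per kb) and H2-T23 (124 to 163) were next and differed by less than their SD within each group. Tap1 (43.2 to 61.3) and Tap2 (44.0 to 58.3) could not be ordered beyond their spread, and they encode the subunits of 1 transporter. H2-Q4 was last in every group, at 8.84 to 16.5 CPM per kb.

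H2-K1 encodes the classical heavy chain of H2-K molecules. It stood at 5988, 4324, 3251 and 3182 CPM in cKO iILC1 libraries, 4526, 2939 and 3592 CPM in control iILC1, 3168, 2319, 2641 and 3189 CPM in cKO iNK, and 4489, 4641 and 3431 CPM in control iNK. Every cKO iNK library lay below every control iNK library, and the highest cKO iNK library lay just above the lowest cKO iILC1 library. The log2 fold change was -0.57 (SE 0.28) for cKO over control in iNK and 0.56 (SE 0.26) for iILC1 over iNK in cKO mice, with edgeR adjusted p of 0.635 and 0.433.

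H2-D1, which encodes the other classical heavy chain of C57BL/6 mice, followed the same order. It had 6450, 4782, 3962 and 3822 CPM in cKO iILC1, 5368, 3643 and 4211 CPM in control iILC1, 4147, 3066, 3545 and 4234 CPM in cKO iNK, and 5677, 5706 and 4288 CPM in control iNK. The cKO and control iNK libraries did not overlap, but the gap between the nearest of them was small beside the spread within either group. The log2 fold change between them was -0.48 (SE 0.27, edgeR adjusted p = 0.694).

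H2-Q4 encodes a non-classical heavy chain of the Q region and was the 1 gene of the 10 that passed a test. It had 52.1, 48.6, 37.4 and 32.9 CPM in cKO iILC1, 39.8, 33.2 and 33.3 CPM in control iILC1, 18.7, 26.5, 26.4 and 20.3 CPM in cKO iNK, and 49.8, 38.3 and 30.9 CPM in control iNK. All cKO iNK libraries were below all libraries of the other groups. H2-Q4 was higher in cKO iILC1 than in cKO iNK by 0.90 on the log2 scale (SE 0.21, edgeR adjusted p = 0.00969), a ratio of 1.86. Without replicate 1 of cKO iNK the adjusted p was 0.0524, and over 16 alternatives it ran from 0.000864 to 0.0524. The change for cKO over control in iNK was -0.79 (SE 0.23), with an edgeR adjusted p of 0.171 and a DESeq2 adjusted p of 0.0308, in a range of 0.0308 to 0.876 over 15 alternatives.

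H2-Q6 and H2-Q7 encode heavy chains of Qa-2, a class I molecule held in the membrane by a lipid anchor. H2-Q7 had 1738, 1110, 901 and 917 CPM in cKO iILC1, 1446, 876 and 1084 CPM in control iILC1, 773, 529, 616 and 705 CPM in cKO iNK, and 1415, 1164 and 863 CPM in control iNK. Again all cKO iNK libraries were below all libraries of each other group. The log2 fold change of H2-Q7 was -0.81 (SE 0.27) for cKO over control in iNK and 0.83 (SE 0.25) for iILC1 over iNK in cKO mice, with edgeR adjusted p of 0.305 and 0.0643. Across alternatives those adjusted p ran from 0.0120 to 0.951 over 15 and from 8.67e-07 to 0.197 over 16.

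H2-Q6 did not separate in this way. Its group means were 1315 ± 334 CPM in cKO iILC1, 1119 ± 212 CPM in control iILC1, 981 ± 102 CPM in cKO iNK and 1293 ± 336 CPM in control iNK (SD, n = 4, 3, 4 and 3). The libraries of the groups overlapped in every comparison, and the log2 fold change was -0.40 (SE 0.25) for cKO over control in iNK and 0.42 (SE 0.24) for iILC1 over iNK in cKO mice.

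H2-T23 encodes Qa-1, whose bound leader peptides of other class I chains make it the ligand of CD94/NKG2A. It had 654, 478, 379 and 375 CPM in cKO iILC1, 486, 323 and 343 CPM in control iILC1, 383, 312, 331 and 407 CPM in cKO iNK, and 471, 442 and 301 CPM in control iNK. The cKO iNK libraries lay inside the range of control iNK. The log2 fold change of H2-T23 in iNK, -0.17 (SE 0.24), was the smallest of the 10 in size.

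B2m encodes the light chain shared by all these heavy chains. It had 2868, 1901, 1347 and 1434 CPM in cKO iILC1, 1825, 1213 and 1377 CPM in control iILC1, 880, 894, 1151 and 1493 CPM in cKO iNK, and 2307, 1436 and 1627 CPM in control iNK. Within cKO iNK, replicates 1 and 2 were low and replicate 4 reached into the ranges of the other groups. The log2 fold change was -0.70 (SE 0.28, edgeR adjusted p = 0.504) for cKO over control in iNK and 0.77 (SE 0.27, edgeR adjusted p = 0.146) for iILC1 over iNK in cKO mice.

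The loading genes overlapped between groups in every comparison. Tap1, a subunit of the transporter, averaged 330 ± 70.7 CPM in cKO iILC1, 280 ± 62.9 CPM in control iILC1, 237 ± 34.8 CPM in cKO iNK and 336 ± 63.1 CPM in control iNK (SD, n = 4, 3, 4 and 3). Tap2, its partner, averaged 213 ± 62.8, 185 ± 35.9, 167 ± 31.7 and 220 ± 38.9 CPM in the same groups. Tapbp, which encodes tapasin, averaged 603 ± 181, 475 ± 132, 429 ± 78.2 and 535 ± 136 CPM. Their log2 fold changes for cKO over control in iNK were -0.50, -0.40 and -0.32, each with an SE of 0.23 to 0.26.

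**Figure D2:**
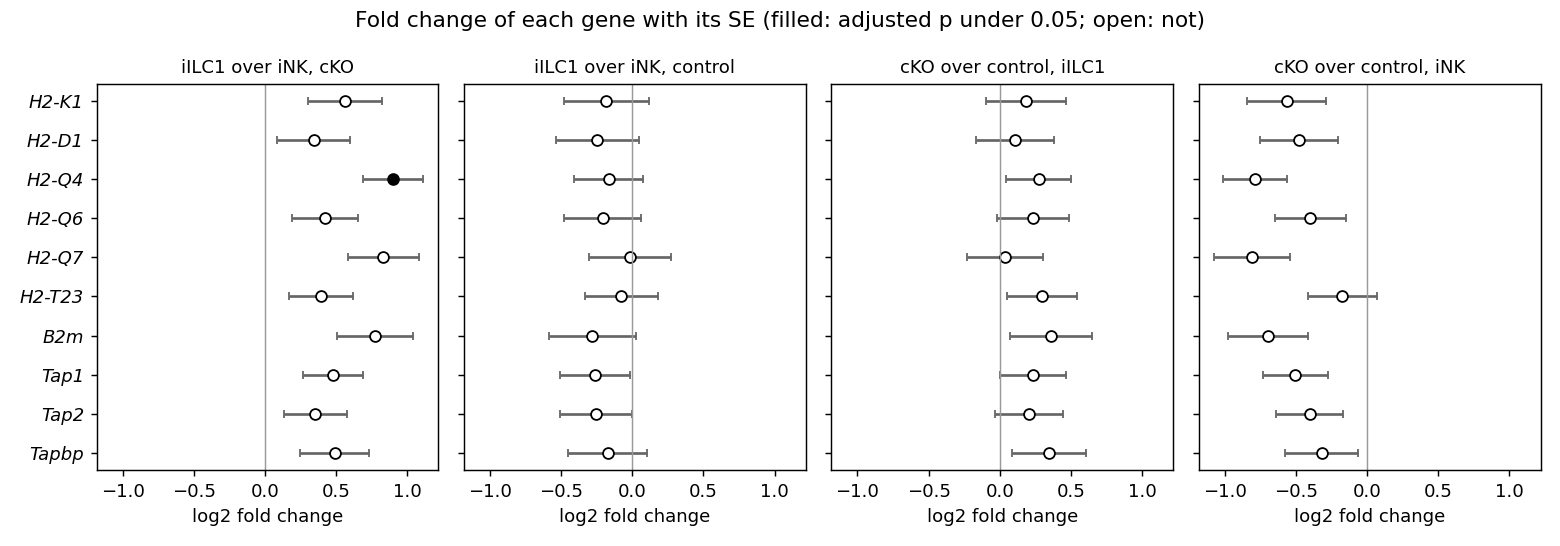
Log2 fold change of each gene with its SE in the 4 comparisons of 2 groups (horizontal axis; iILC1 over iNK in cKO and in control mice, cKO over control in iILC1 and in iNK). A filled point has an edgeR adjusted p under 0.05, and H2-Q4 for iILC1 over iNK in cKO mice is the 1 such point. Estimates lie right of 0 in the first and the third panel and left of 0 in the second and the fourth.

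For cKO over control in iNK, edgeR called 0 of the 10 genes at an adjusted p under 0.05, against 110 genes or 0.408% of all those tested. DESeq2 called 2 of the 10, H2-Q4 and H2-Q7, both lower, and 294 over all genes. At an unadjusted p under 0.05, 4 were lower (H2-Q4, H2-Q7, B2m and Tap1), against 3.95% of all genes. The libraries of both groups did not overlap for 4 genes, all lower (H2-K1, H2-D1, H2-Q4 and H2-Q7), against 4.75% of all genes. The estimates ran from -0.81 to -0.17, all under 0, as did 44.9% of all genes, with a median of -0.49 against 0.06 over all genes. Genes with a mean of at least 100 CPM were themselves shifted, with a median of -0.19 over 2392 genes and 83.2% under 0, and 9 of the 10 genes are in that range.

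For cKO over control in iILC1, edgeR called 0 of the 10, against 13 genes or 0.0482% of all tested, and DESeq2 also called 0. At an unadjusted p under 0.05 the count was 0, against 4.52% of all genes. The log2 estimates were 0.18 for H2-K1, 0.11 for H2-D1, 0.27 for H2-Q4, 0.23 for H2-Q6, 0.04 for H2-Q7, 0.30 for H2-T23, 0.36 for B2m, 0.23 for Tap1, 0.21 for Tap2 and 0.34 for Tapbp. Their median was 0.23, against 0.01 over all genes and 0.16 over genes of at least 100 CPM. All 10 estimates were above 0, as were 51.6% of all genes, and 16.2% of genes of at least 100 CPM were under 0. Groups that did not overlap, with cKO higher, were found for 0 of the 10 and for 2.66% of all genes. Without replicate 1 of cKO iILC1 the estimates of H2-D1, H2-K1, H2-Q7 and Tap2 were under 0, at -0.07, -0.04, -0.22 and -0.01. That library had the highest level of all 10 genes among the 14 libraries and the least background reads of its group.

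For iILC1 over iNK in cKO mice, 1 of the 10 genes was called, H2-Q4, higher, against 923 genes or 3.42% of all tested, and 1.74% called higher. The groups did not overlap for H2-Q4 and H2-Q7, both higher, against 3.52% of all genes. At an unadjusted p under 0.05, 5 were higher (H2-K1, H2-Q4, H2-Q7, B2m and Tap1), against 4.93%. H2-T23 was at 0.40, Tap1 at 0.48, Tap2 at 0.36 and Tapbp at 0.49 on the log2 scale. The estimates of the 10 ran from 0.34 for H2-D1 to 0.90 for H2-Q4, with a median of 0.48, against 0.01 over all genes and -0.08 over genes of at least 100 CPM. All 10 were above 0, as were 50.9% of all genes, and 63.8% of genes of at least 100 CPM were under 0. With background reads as a covariate, 10 of the 10 were called higher, at 0.45 to 0.96 and adjusted p of 8.67e-07 to 0.0157, while the count over all genes was 1640.

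For iILC1 over iNK in control mice, edgeR called 0 of the 10, against 1056 genes or 3.91% of all tested, and DESeq2 also called 0. At an unadjusted p under 0.05 the count was 0, against 20.8% of all genes, and the groups overlapped for all 10, while 13% of all genes had iILC1 libraries all lower. All 10 estimates were under 0, as were 42.6% of all genes and 91.6% of genes of at least 100 CPM. They were -0.18 for H2-K1, -0.25 for H2-D1, -0.17 for H2-Q4, -0.21 for H2-Q6, -0.02 for H2-Q7, -0.08 for H2-T23, -0.28 for B2m, -0.26 for Tap1, -0.26 for Tap2 and -0.17 for Tapbp. Their median was -0.20, against 0.16 over all genes and -0.43 over genes of at least 100 CPM. With background reads as a covariate all 10 estimates were above 0, at 0.04 to 0.56, and H2-Q7 was called higher (0.56, adjusted p = 0.0276, in a range of 0.0276 to 0.993 over 14 alternatives). The sign in control mice therefore depends on that setting. In raw share of counts, without TMM scaling, the 10 genes together averaged higher in control iILC1 (1.43%) than in control iNK (1.31%), with overlapping libraries. The mean TMM factors of these groups were 1.11 and 0.879.

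The genotype effect in iILC1 minus that in iNK was tested as an interaction. edgeR called 0 of the 10, against 21 genes or 0.0778% of all tested, and 0 were called by DESeq2 and under every other alternative run. At an unadjusted p under 0.05, 4 were above 0 (H2-Q4, H2-Q7, B2m and Tap1), against 3.42% of all genes. The differences of log2 fold changes were 0.75 for H2-K1, 0.59 for H2-D1, 1.06 for H2-Q4, 0.63 for H2-Q6, 0.85 for H2-Q7, 0.47 for H2-T23, 1.06 for B2m, 0.74 for Tap1, 0.61 for Tap2 and 0.66 for Tapbp. Their median was 0.70, against -0.03 over all genes and 0.36 over genes of at least 100 CPM. All 10 were above 0, as were 48.3% of all genes, and 6.19% of genes of at least 100 CPM were under 0. The difference between cell types in the effect of the genotype was therefore not shown for any of the 10.

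With the reads of the 6 heavy chain genes summed, the log2 fold change was 0.47 for iILC1 over iNK in cKO mice, -0.19 in control mice, 0.15 for cKO over control in iILC1 and -0.52 in iNK. These values lie inside the range of the separate genes in each comparison.

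The 10 genes varied together from library to library. The Pearson correlation of a gene's log2 CPM with the mean of the other 9, over 14 libraries that share their depth and background with all genes, ran from 0.73 for H2-Q4 and 0.86 for B2m to 0.98 for H2-K1. The closest pair was H2-K1 and H2-D1, at 0.98. Their counts in a comparison are for this reason not 10 separate observations. The summed level also tended to be lower in libraries with more background reads, as the plot of the summed level against background shows.

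**Figure D3:**
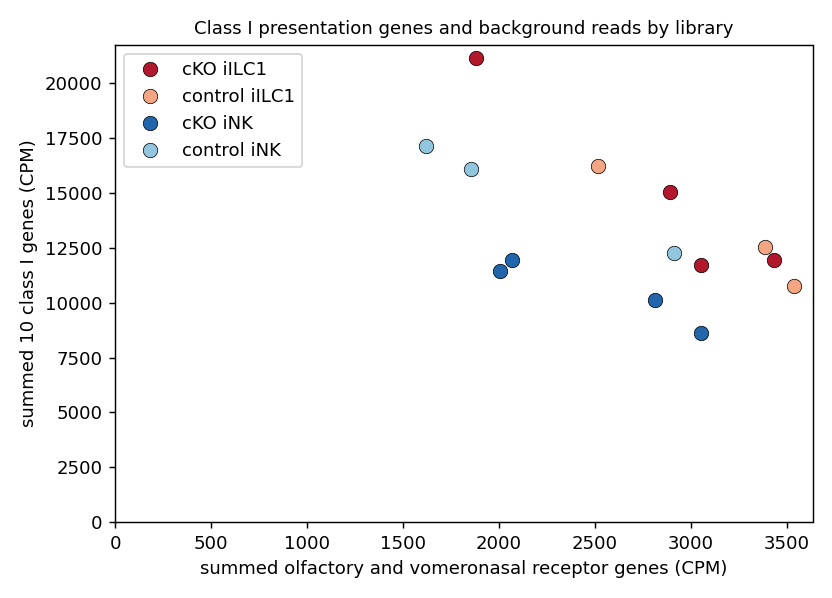
Summed level of the 10 genes (vertical axis, CPM) against summed olfactory and vomeronasal receptor genes (horizontal axis, CPM), 1 point a library, by group. Within each group the library with most background reads has a lower class I sum than the library with least, and the cKO iNK points, at 8637 to 11947 CPM, lie lower than points of the other groups with like background.

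Because this scaling touches all genes of a library, ratios of raw counts between class I genes within a library were added after the values were seen. Depth and scaling drop out of such a ratio. It shows unequal change and not which gene changed, and shared reads can move it. The 40 exact two-sided permutation tests (10 ratios, 4 comparisons) gave no adjusted p under 0.114, and the smallest p the design allows is 0.0286 with 4 libraries against 3 or 4, and 0.1 with 3 against 3. An adjusted p under 0.05 would need many tests at the floor of 0.0286 at once, and 3 against 3 cannot reach it. The lack of such a value therefore does not show that ratios were equal.

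H2-K1 over H2-D1 was 0.928, 0.904, 0.821 and 0.833 in cKO iILC1, 0.843, 0.807 and 0.853 in control iILC1, 0.764, 0.757, 0.745 and 0.753 in cKO iNK, and 0.791, 0.813 and 0.8002 in control iNK. All cKO iNK libraries were below all others, within a narrow range of their own. The log2 difference was -0.09 for cKO over control in iNK and 0.21 for iILC1 over iNK in cKO mice (exact permutation p = 0.0286 and adjusted p = 0.114 for each).

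H2-Q7 over H2-Q6 was 0.970, 0.856, 0.808 and 0.868 in cKO iILC1, 1.060, 0.891 and 1.073 in control iILC1, 0.702, 0.620, 0.632 and 0.707 in cKO iNK, and 0.954, 0.781 and 0.953 in control iNK. Here too the cKO iNK libraries lay below every other library. The log2 difference was -0.43 for cKO over control in iNK and 0.40 for iILC1 over iNK in cKO mice, each with an exact permutation p of 0.0286 and an adjusted p of 0.114. Leaving out any 1 library gave -0.52 to -0.38 and 0.34 to 0.43.

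H2-T23 over H2-D1 stood the other way, higher in cKO than in control libraries of both cell types. It averaged 0.0988 ± 0.0025 in cKO iILC1 and 0.0869 ± 0.0048 in control iILC1, and 0.0960 ± 0.0042 in cKO iNK and 0.0769 ± 0.0064 in control iNK (SD, n = 4, 3, 4 and 3). The cKO and control libraries did not overlap in either cell type, with log2 differences of 0.19 in iILC1 and 0.32 in iNK (exact permutation p = 0.0286, adjusted p = 0.114 for each). Tapbp over H2-D1 averaged 0.126 ± 0.0056 in cKO iILC1 and 0.107 ± 0.0082 in control iILC1, with no overlap and the same p, and 0.114 ± 0.0076 in cKO iNK and 0.101 ± 0.012 in control iNK, with overlap.

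The ratios of the other genes to H2-D1 share its counts, so they are not separate observations. In iILC1 the cKO libraries lay above all control libraries for 5 of the 9 ratios to H2-D1, those of H2-T23, Tapbp, H2-Q6, B2m and Tap1. The share of all genes whose ratio to H2-D1 separates in this way was not computed for either cell type, so these counts have no background. H2-Q6 over H2-D1 averaged 0.277 in cKO iILC1 and 0.255 in control iILC1 (exact permutation p = 0.0286, adjusted p = 0.114). B2m over H2-D1 averaged 0.389 in cKO iILC1 and 0.333 in control iILC1, and Tap1 over H2-D1 0.0699 and 0.0634 in the same groups (exact permutation p = 0.0571 and adjusted p = 0.163 for each). In iNK the cKO libraries were all lower for the ratios of H2-K1 and H2-Q7 to H2-D1 and all higher for that of H2-T23, and they overlapped with control for the other 6. H2-Q7 over H2-D1 averaged 0.175 in cKO iNK and 0.218 in control iNK (exact permutation p = 0.0286, adjusted p = 0.114).

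**Figure D4:**
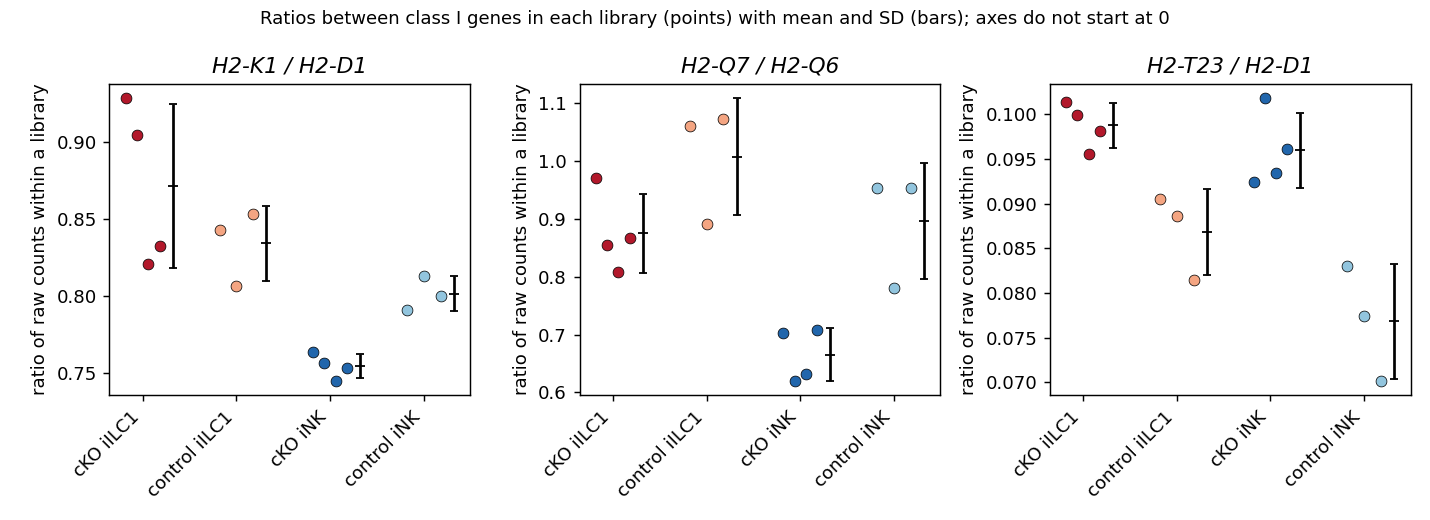
Ratio of raw counts of H2-K1 to H2-D1, H2-Q7 to H2-Q6 and H2-T23 to H2-D1 within each library (vertical axes, not from 0), by group; points are libraries, bars the mean and SD. The cKO iNK libraries are lowest in the first and the second panel, and cKO libraries are above control libraries of the same cell type in the third.

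Among other genes of the pathway, none of the 9 peptide loading and trimming genes and none of the 5 genes of the immunoproteasome and its activator passed the test in any comparison. Their medians for cKO over control in iNK were -0.46 and -0.37, against 0.06 over all genes and -0.19 over genes of at least 100 CPM, a level that all 14 reached in the mean of each group. For cKO over control in iILC1 these medians were 0.21 and 0.24, beside 0.23 for the 10 genes. For iILC1 over iNK in cKO mice they were 0.08 and 0.09, beside 0.48 for the 10 genes. In control mice they were -0.42 and -0.55, beside -0.20 for the 10 genes. Of 14 other class I and class I-like genes tested, H2-M3, which presents formylated peptides, was higher in cKO iILC1 (89.3 ± 23.1 CPM) than in cKO iNK (54.7 ± 7.37 CPM), by 0.71 on the log2 scale (edgeR adjusted p = 0.0461), and none passed in the other comparisons.

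Of 18 genes that act on class I transcription, 3 were higher and 3 lower in cKO iILC1 than in cKO iNK. The higher ones included Nlrc5, the class I transactivator (0.97, adjusted p = 0.0130), and Jak2, a kinase of the interferon gamma receptor (0.99, adjusted p = 0.00608), both by edgeR. The lower ones were Irf8, an interferon regulatory factor (-0.86), Nfkb1, a subunit of NF-kappaB (-0.96), and Jak1, a kinase of interferon and cytokine receptors (-1.05), with edgeR adjusted p of 0.0202, 0.00163 and 0.0206. In control mice, Irf8 (-1.34) and Nfkb1 (-0.88) were lower in iILC1 than in iNK, with edgeR adjusted p of 0.00200 and 0.0200. None of the 18 passed for genotype in either cell type or for the interaction.

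Nlrc5, like every class I gene of the set, had its lowest mean in cKO iNK. It stood at 451, 362, 319 and 287 CPM in cKO iILC1, 408, 290 and 365 CPM in control iILC1, 255, 138, 206 and 123 CPM in cKO iNK, and 357, 396 and 251 CPM in control iNK. The lowest control iNK library lay just under the highest cKO iNK library, and the log2 fold change between these groups was -0.89 (SE 0.25, edgeR adjusted p = 0.158).

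Of 14 interferon-responsive genes, 7 were higher in cKO iILC1 than in cKO iNK and none was lower, with a median of 0.63. Over all genes tested, 1.74% were called higher. The 4 with the largest change were Isg15, a ubiquitin-like modifier (2.84), Igtp, an immunity-related GTPase (1.74), Ifit1, which binds foreign RNA (1.34), and Gbp4, a guanylate-binding protein (1.101), each with an edgeR adjusted p of 0.00211 or less. Isg15 was low in count, with 2 to 26 counts in cKO iNK libraries and 32 to 97 in cKO iILC1 libraries. None of the 14 passed in the other comparisons, where the medians were -0.26 for cKO over control in iNK, 0.27 in iILC1 and 0.21 for iILC1 over iNK in control mice. Whether the change between cell types differed between genotypes was tested as the interaction, which called none of them.

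The 8 genes outside the set whose log2 CPM was most like the mean of the 10 across the 14 libraries, among 8302 with a mean of at least 20 CPM, were Anxa5 (Pearson r = 0.97), Lsp1 (0.97), Mapkapk2 (0.96), Dnajc3 (0.96), Sulf2 (0.96), H2-T22 (0.95), Tpst2 (0.95) and Ptpn7 (0.95). H2-T22 is itself a class I-like gene. These values describe libraries that share depth and background, and no p-value is attached to them.

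Markers of other cells moved with some of the comparisons. Of 12 B lineage markers, 7 were higher in cKO iNK than in control iNK, led by Ly6d (3.97), Fcmr (3.85) and Cd79a (3.59), and the list summed to 418 to 683 CPM in cKO iILC1, 350 to 481 in control iILC1, 681 to 1093 in cKO iNK and 404 to 618 in control iNK. The same 7 were lower in cKO iILC1 than in cKO iNK. Of 7 MHC class II genes, H2-Aa, H2-Ab1, H2-Eb1 and Cd74 were higher in cKO than in control mice in both cell types, and the list summed to 516 to 760 CPM in cKO iILC1, 212 to 327 in control iILC1, 325 to 478 in cKO iNK and 104 to 129 in control iNK.

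Of 7 erythroid markers, Hbb-bs (4.47) and Hbb-bt (5.25) were higher in cKO iNK than in control iNK, with sums of 233 to 480 CPM in cKO iILC1, 222 to 395 in control iILC1, 264 to 817 in cKO iNK and 340 to 417 in control iNK. T cell markers summed to 81.9 to 136 CPM in cKO iILC1, 156 to 291 in control iILC1, 60.6 to 81.9 in cKO iNK and 72.2 to 94.4 in control iNK, and Cd3e was higher in iILC1 than in iNK in both genotypes. Myeloid and dendritic markers summed to 182 to 398 CPM in cKO iILC1, 215 to 305 in control iILC1, 436 to 591 in cKO iNK and 344 to 711 in control iNK. No marker of these lists was at 0 in all 14 libraries, and those at 0 in at least 1 library were 1 T cell, 2 myeloid and 3 erythroid markers. The part of these cells in the class I values was not tested.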

How the data were processed

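Bulk RNA was measured in 14 libraries of sorted bone marrow lymphocytes. Per the labels' protocols, cDNA from 2000 cells was made with SMART-Seq v4 and 1 ng was tagged with Nextera XT, kits that do not mark strand. The authors deposited whole-number read counts for each Ensembl gene, not normalized, per the file headers. The build mm10, Subread 1.6.5 with featureCounts, HISAT2 2.1.0 and Trimmomatic 0.33 are listed in the submitters' processing notes. Strand setting, annotation release and treatment of reads with several placements are not given in the sources used here.

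Symbols matched 45143 of 46078 identifiers (97.97%). Genes were kept by edgeR's filterByExpr (minimum count 10, minimum total 15), which left 26990, and counts were scaled by TMM. Tests were edgeR 4.0.16 (R 4.3.3) quasi-likelihood F tests, two-sided, in 1 fit of all 14 libraries with a mean per group (10 residual degrees of freedom, common biological coefficient of variation 30.0%), with Benjamini-Hochberg adjustment over all genes tested and a threshold of 0.05; SEs were derived from the F statistic. Log2 CPM for correlations used a prior count of 2. The procedure was tested on simulated data with changes put into genes drawn from all those tested. Log2 changes of 0.5 were recovered for 0% of such genes for genotype in iNK and 2.04% for cell type in cKO. Changes of 1 were recovered for 34% and 24.5%. A gene that was not called is therefore not shown to be unchanged. The recovery rates are over genes of all levels, each simulated on its own, and are not rates for the 10 genes. Background reads were the summed CPM of 1669 olfactory and vomeronasal receptor genes. Ratios were compared with exact permutation tests of mean log2 ratios. No pair of replicates agreed within sampling noise (chi-square per degree of freedom 4.97 to 27.1).

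All 10 genes are named in every comparison. From each other list, genes past the threshold are named, up to 4 in each direction by fold change, and some genes are not reported here. The genes and lists were chosen with earlier results of these data known. Alternatives were RLE scaling, DESeq2 1.42.0, 2 other filters (none, or 5 CPM in 3 libraries), a fit of 2 groups, a background covariate, a replicate block, and leaving out libraries.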

Additional observations from a re-analysis of the deposited data

How the results depend on the processing

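The log2 fold changes of the 10 genes kept their sign in every alternative for iILC1 over iNK in cKO mice and for the interaction, and, apart from H2-T23 with the background covariate (0.051), for cKO over control in iNK. Genes called for iILC1 over iNK in cKO mice numbered 10 with the background covariate, 4 with a filter at 5 CPM, 3 with DESeq2, 2 in the fit of both groups alone, and 0 to 2 when 1 library was left out, against 1. Calls over all genes in that comparison were 1640, 1191, 1098 and 1006 under the first 4 of these settings, against 923. The genes tested can differ where the filter or the libraries change, so such counts, here and below, have no common total. For cKO over control in iNK, 2 were called by DESeq2 and 1 with the background covariate, against 0. For iILC1 over iNK in control mice, 1 was called with that covariate, against 0, and all estimates turned above 0: B2m 0.17, H2-D1 0.18, H2-K1 0.29, H2-Q4 0.042, H2-Q6 0.28, H2-Q7 0.56, H2-T23 0.43, Tap1 0.15, Tap2 0.21 and Tapbp 0.41. In that comparison, H2-Q7 and H2-T23 also turned with a filter at 5 CPM (0.12 and 0.061), H2-Q7 in the fit of both groups alone (0.052), and H2-Q4, H2-Q7 and H2-T23 without cKO iILC1 replicate 1 and control iNK replicate 1 (0.027, 0.16 and 0.043). Leaving out 1 library gave -0.33 to 0.030 for H2-Q4, -0.25 to 0.16 for H2-Q7 and -0.30 to 0.048 for H2-T23.

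For cKO over control in iILC1, H2-D1 and H2-Q7 turned with the background covariate (-0.035 and -0.16). H2-Q7 turned with a filter at 5 CPM (-0.047) and in the fit of both groups alone (-0.016). H2-D1, H2-K1, H2-Q7 and Tap2 turned without the same pair of libraries (-0.071, -0.038, -0.22 and -0.0086). Leaving out 1 library gave -0.075 to 0.28 for H2-D1, -0.042 to 0.37 for H2-K1, -0.22 to 0.26 for H2-Q7 and -0.012 to 0.36 for Tap2. The cause of these changes was not tested.

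Over all genes, calls for cKO over control in iNK (110) became 294 with DESeq2, 356 with the background covariate, 210 with a filter at 5 CPM, 220 in the fit of both groups alone, 191 with no filter and 63 to 87 when 1 library was left out. In iILC1 (13) they became 46, 53, 30 and 47 with DESeq2, the covariate, the 5 CPM filter and no filter, and 4 to 22 when 1 library was left out. For iILC1 over iNK, the covariate gave 1640 in cKO mice (923), and in control mice (1056) DESeq2 gave 2180, the 5 CPM filter 1593, the fit of both groups alone 1696 and leaving out 1 library 394 to 1701. Interaction calls (21) became 37, 32 and 56 with DESeq2, the covariate and no filter, and 10 to 33 when 1 library was left out.

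Same-numbered samples correlated at -0.09 to 0.39 over 19 pairs, 9 of them over 0.1, with a median of 0.098, against a median of -0.038 over 54 pairs of different number, 12 of them over 0.1. Not every same-numbered pair was over 0.1, so the main fit did not pair samples by number. The 19 pairs include pairs of a cKO and a control sample, which cannot come from 1 mouse. Replicate 1 had the least background reads of each group. Whether same-numbered samples share a mouse or a batch was not tested, and this rule cannot decide it. With a replicate block, 2 of the 10 genes were called for iILC1 over iNK in cKO mice (H2-Q4 and H2-Q7) and 0 in the other comparisons, and calls over all genes were 1206 there, 2212 in control mice, 175 and 30 for genotype in iNK and iILC1, and 40 for the interaction.

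When any 1 library was left out, an alternative chosen after seeing the data, the ratios of H2-K1 to H2-D1, H2-Q7 to H2-Q6 and H2-T23 to H2-D1 kept their sign in each of the 4 comparisons. Tapbp to H2-D1 kept it in 3 and gave -0.013 to 0.16 for iILC1 over iNK in control mice. The other ratios were not checked in this way. Counting error is small at these depths except for H2-Q4, so the spread between libraries sets the precision.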
